A study of Rattus norvegicus with 12 samples.

Results

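The neurotrophin genes Bdnf and Ntf3 and the receptor genes Ntrk2, Ntrk3 and Ngfr were examined in the inferior colliculus (IC), the auditory centre of the midbrain, of SD (Sprague-Dawley) rats. Each of these 5 genes was read by 1 probe set with exactly 1 gene symbol, and they are 5 of the 18166 genes so measured. The 12 arrays form 4 groups of 3: the left and the right IC of rats made deaf on one side, whose right cochlea had been ablated 2 weeks earlier, and the left and the right IC of control rats, which had a sham operation (an incision behind the ear, with the otic bulla not drilled). Each arm had 20 rats, but how many rats went into an array is not stated, and neither is any link between left and right arrays of equal number. For this reason p-values cover only array-to-array spread, part of which may be technical. Neither age nor sex of the rats is stated. Ascending auditory fibres mostly cross, so the left IC lies opposite the ablated ear and the right IC on its side.

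Neurotrophins are secreted growth factors that support the survival, growth and synapses of neurons. Brain-derived neurotrophic factor, the product of Bdnf, acts through the receptor tyrosine kinase TrkB (Ntrk2), neurotrophin-3 (Ntf3) through TrkC (Ntrk3), and all neurotrophins, and above all their uncleaved precursors, also bind the p75 receptor (Ngfr). In the ear they keep the neurons of the cochlear ganglion alive, and in the brain Bdnf is transcribed in response to synaptic activity, from several promoters that each carry a first exon of their own.

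The promoters of the ligand genes are shown because synaptic activity is known to act on Bdnf at the level of its promoters, and the window chosen for Bdnf is the one that holds the half-site searched for. Of the 5 genes, 2 were matched in a RefSeq promoter table (build GRCr8), with 6 start sites for Bdnf and 3 for Ntf3. The 250 bases before each start were searched on both strands for CGTCA, a half-site of the element bound by the factor CREB. It was found before 1 of the 6 Bdnf starts, beginning 35 bases before it, and before none of the 3 Ntf3 starts; 18.2% of 33469 rat promoter windows of the same length hold it. Capitals mark the half-site, and both sequences run 5′ to 3′.
Bdnf, the fourth start, chr3:116637608-116637857, plus strand: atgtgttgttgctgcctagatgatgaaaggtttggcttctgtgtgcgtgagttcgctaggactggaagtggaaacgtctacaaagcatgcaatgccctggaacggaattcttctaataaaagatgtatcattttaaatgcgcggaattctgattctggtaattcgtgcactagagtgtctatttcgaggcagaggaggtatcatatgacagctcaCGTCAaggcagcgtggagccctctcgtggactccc
Ntf3, the first start, chr4:160670624-160670873, minus strand: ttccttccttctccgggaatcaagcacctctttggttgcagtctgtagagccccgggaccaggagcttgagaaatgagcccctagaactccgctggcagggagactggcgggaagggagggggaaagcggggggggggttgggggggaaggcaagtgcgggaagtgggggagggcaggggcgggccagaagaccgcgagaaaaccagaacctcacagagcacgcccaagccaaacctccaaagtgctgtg
No source used here says which of these starts the Bdnf probe set reads, so its value could not be assigned to a start.

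Values are log2 intensities as deposited, a change is the difference of 2 group means with its standard error (SE), and n = 3 arrays in every group. Differences were tested with limma over all 18166 genes, two-sided, with p-values adjusted by the Benjamini-Hochberg method and a threshold of 0.05. The tissue label was compared with marker genes, since the series title and the description fields name hippocampus, and some descriptions a noise group, where sample titles, tissue labels and the design text name the IC and cochlear ablation. Of 16 measured tectal transcription factor genes, 10 or 11 lay above the median of all values (5.98) in every group, among them Tfap2d, at 9.54 to 9.66 in the group means. Of 17 measured forebrain and hippocampal genes, 6 lay above that median in every group, among them Nrgn (11.1 to 11.3), Mef2c and Lhx9, and 5 to 7 lay below the lower quartile of all values, 4.47. Among the low ones were Neurod6 (3.25 to 3.71) and Spink8 (3.34 to 3.76). The score of 19 cerebellar markers, the mean of their gene-centred values, was -0.17 to -0.11 on right deaf arrays but 0.049 to 0.52 on right control arrays, with right control 3 highest. In the left IC it was -0.11 to -0.033 in deaf and -0.14 to -0.051 in control arrays. The score of 19 meningeal and fibroblast markers ran from -0.54 to 0.59 over the 12 arrays, with wide ranges in all groups. In whole tissue, fewer cells of a type and less RNA per cell cannot be told apart.

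None of the 5 genes passed the adjusted threshold between deaf and control rats, on either side or as the mean of both sides. Ngfr in the right IC was the only 1 whose deaf and control arrays of a side did not overlap. Limma called 0 of 5 in each of 6 comparisons, against 0% of all genes, and 0 of 5 at an unadjusted p under 0.05, against 3.69% of genes on the left, 4.31% on the right and 4.53% for the mean of both sides. The deaf and control arrays of a side did not overlap for 0 of 5 on the left (10.3% of all genes), for 1 of 5 on the right, Ngfr (7.48%), and, with all 6 deaf against all 6 control arrays, for 0 of 5 (0.270%). The sizes that the arrays leave possible differ between the genes, and are given with each of them as a 95% interval of the ratio of deaf to control. Array intensities can understate ratios, most of all for dim probes.

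**Figure D1:**
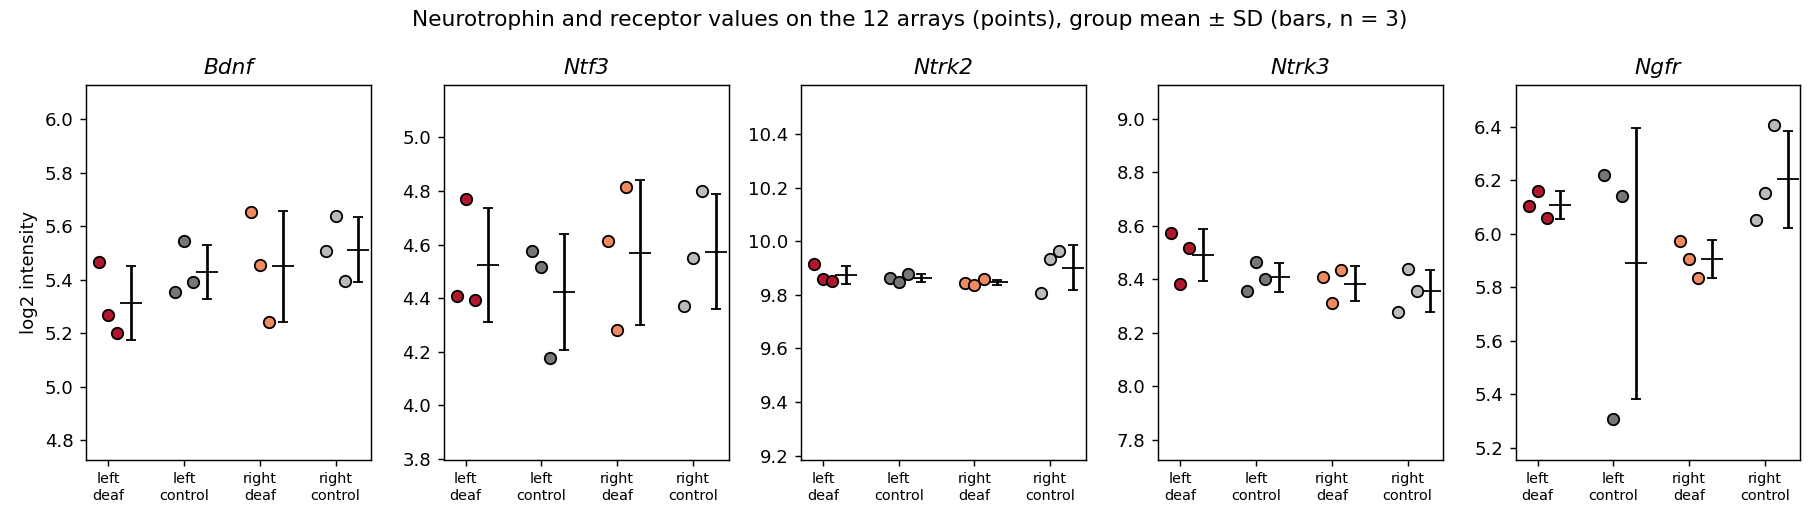
Log2 intensity of the 5 genes on each of the 12 arrays (points), with the group mean and SD beside them (n = 3). Every panel has a y axis of the same length, so spreads can be compared: Ntrk2 values lie between 9.81 and 9.96, whereas Ngfr on left control 2 is at 5.31, far below the other 11 arrays.

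Bdnf, the ligand of TrkB, had 5.47, 5.27 and 5.20 on left deaf arrays 1 to 3, against 5.35, 5.54 and 5.39 on left control arrays. Its values were 5.65, 5.46 and 5.24 on right deaf arrays and 5.51, 5.64 and 5.39 on right control arrays. Left deaf 2 and left deaf 3 lay below all left controls, but left deaf 1 lay among them, and the groups overlapped on both sides. The difference was -0.12 (SE 0.12; limma adjusted p = 1.00; exact permutation p = 0.3) on the left and -0.062 (SE 0.12; limma adjusted p = 1.00; exact permutation p = 0.7) on the right. Averaged over both sides it was -0.090 (SE 0.083), a ratio of 0.939 with an interval of 0.828 to 1.07. On the left side alone the interval was 0.771 to 1.10. With 1 array left out, the left difference ran from -0.19 without left deaf 1 to -0.061 without left control 2. The mean of both sides ran from -0.14 without right deaf 1 to -0.038 without right deaf 3. The order of group means was right control (5.51), right deaf (5.45), left control (5.43) and left deaf (5.31), and no neighbours in that order differed by more than the larger of their SDs (0.10 to 0.21). With 3 arrays against 3 the smallest exact p is 0.1.

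Ntf3, the ligand of TrkC, was a dim probe set, close to the lower quartile of all values. It had 4.41, 4.77 and 4.39 on left deaf arrays, against 4.57, 4.52 and 4.18 on left control arrays. On the right it had 4.61, 4.28 and 4.82 on deaf arrays and 4.37, 4.55 and 4.80 on control arrays. The spread within a group, 0.21 to 0.27 (SD), was larger than any difference between group means. The difference was 0.10 (SE 0.17; limma adjusted p = 1.00; exact permutation p = 0.6) on the left and -0.0046 (SE 0.17; exact permutation p = 1) on the right. For the mean of both sides the ratio was 1.03, with an interval of 0.864 to 1.24. Its direction depended on single arrays: the left difference was -0.023 without left deaf 2 and also -0.023 without left control 3. The right difference ran from -0.13 without right deaf 3 to 0.14 without right deaf 2. The group means ran from right control (4.57) and right deaf (4.57) through left deaf (4.52) to left control (4.42), with no neighbours apart by more than their SDs. Over the 12 arrays Ntf3 varied with the score of 17 forebrain and hippocampal markers (Pearson r = 0.76, Spearman rho = 0.78; r = 0.81 for deviations from the group means). That score was -0.061 to 0.0072 in left deaf, -0.085 to -0.042 in left control, -0.092 to 0.13 in right deaf and -0.025 to 0.16 in right control arrays. This correlation is given as the largest that Ntf3 had with any marker score, and other genes had some as large. Ntrk2 had r = -0.77 with the score of choroid and ependymal markers. Ntrk3 had r = -0.80 with the meningeal and fibroblast score for deviations from the group means. The part of the forebrain and hippocampal score in the Ntf3 values was not tested.

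Ntrk2, which encodes TrkB and in astrocytes mainly a form without the kinase, was the steadiest of the 5 genes. It had 9.91, 9.86 and 9.85 on left deaf arrays, against 9.86, 9.85 and 9.88 on left control arrays, and 9.85, 9.84 and 9.86 on right deaf arrays, against 9.81, 9.94 and 9.96 on right control arrays. All 12 arrays lay between 9.81 and 9.96, the groups overlapped on both sides, and its residual SD within groups (0.046) was larger than that of 0.996% of all genes and of 4.95% of the 909 genes in its band of level. The difference was 0.011 (SE 0.071; limma adjusted p = 1.00) on the left and -0.054 (SE 0.071; limma adjusted p = 1.00) on the right, with exact permutation p of 0.8 and 0.4. The ratio for the mean of both sides was 0.985, with an interval of 0.913 to 1.06, the narrowest of the 5 genes. Right control was highest (9.90, SD 0.084) and right deaf lowest (9.85, SD 0.010), with left deaf (9.87) and left control (9.86) between them. Without right control 3, which also had the highest cerebellar score, the right difference was -0.024, and without right control 1 it was -0.10.

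Ntrk3, which encodes TrkC, had its highest mean in left deaf arrays. It had 8.57, 8.38 and 8.52 on left deaf arrays, against 8.36, 8.46 and 8.40 on left control arrays. On the right it had 8.41, 8.31 and 8.43 on deaf arrays and 8.28, 8.44 and 8.35 on control arrays. Left deaf 1 and left deaf 3 lay above the other 10 arrays, and left deaf 2 lay among the controls. The difference was 0.084 (SE 0.082; limma adjusted p = 1.00; exact permutation p = 0.3) on the left and 0.027 (SE 0.082; exact permutation p = 0.7) on the right. The ratio for the mean of both sides was 1.04, with an interval of 0.952 to 1.13. The order of group means was left deaf (8.49, SD 0.098), left control (8.41, SD 0.054), right deaf (8.38, SD 0.064) and right control (8.36, SD 0.079), and no neighbours differed by more than the larger of their SDs. The left difference was 0.043 without left deaf 1 and 0.14 without left deaf 2.

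**Figure D2:**
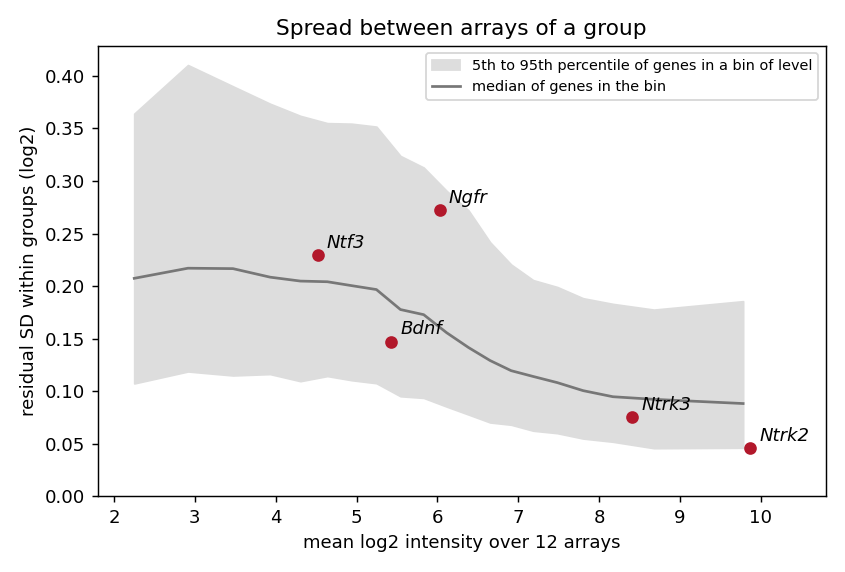
Residual SD within groups against the mean log2 intensity over 12 arrays, for the 5 genes (points) and for all genes in 20 bands of level (line: median; grey: 5th to 95th percentile). Ntrk2, at 0.046, lies near the lower edge of its band, and Ngfr, at 0.27, lies near the upper edge.

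Ngfr, which encodes the p75 receptor, had the largest residual SD of the 5 and was the only 1 whose groups separated on a side. That spread came from the left control group (SD 0.51), which holds the low left control 2. In the other groups its SD was 0.052 to 0.18, below that of Ntf3 in the same groups (0.21 to 0.27). In the right IC it had 5.97, 5.91 and 5.83 on deaf arrays, against 6.05, 6.15 and 6.41 on control arrays, and all deaf arrays lay below all control arrays. In the left IC it had 6.11, 6.16 and 6.06 on deaf arrays, against 6.22, 5.31 and 6.14 on control arrays, with left control 2 far below the rest. The right difference was -0.30 (SE 0.19; limma adjusted p = 1.00; unadjusted p = 0.151), a ratio of 0.813 with an interval of 0.606 to 1.09, and the exact permutation p was 0.1, the smallest that 3 against 3 arrays can give. The left difference was 0.22 (SE 0.19; limma adjusted p = 1.00; exact permutation p = 0.9). It turned to -0.073 without left control 2, an array whose astrocyte marker score was also the lowest of the 12 (-0.099). For the mean of both sides the ratio was 0.973, with an interval of 0.790 to 1.20.

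Leaving out left control 2 leaves the right difference of Ngfr as it is by construction and lowers only its estimated error, to an SE of 0.098, with an unadjusted p of 0.0118 (limma adjusted p = 1.00), and the mean of both sides was -0.19 (unadjusted p = 0.0293; limma adjusted p = 1.00). Without right control 3 the right difference was -0.20. The cerebellar score was higher on every right control than on every right deaf array. The score of 14 measured oligodendrocyte markers also did not overlap there, at -0.087 to 0.018 in right deaf and 0.022 to 0.15 in right control arrays. Of the marker scores, that of 12 measured astrocyte markers had the largest Pearson r with Ngfr over the 12 arrays. It was 0.65 (Spearman rho = 0.47, and r = 0.69 for deviations from the group means). With the cerebellar score r was 0.50 and with the oligodendrocyte score 0.21. The astrocyte score was -0.035 to 0.049 in right deaf and 0.013 to 0.11 in right control arrays, which overlapped. The part of these scores in the Ngfr difference was not tested. Schwann cells of nerve roots also make p75. The score of 12 measured Schwann cell markers was -0.062 to 0.050 in right deaf and -0.0077 to 0.11 in right control arrays, which overlapped. Group means of Ngfr ran from right control (6.20, SD 0.18) through left deaf (6.11, SD 0.052) and right deaf (5.91, SD 0.070) to left control (5.89, SD 0.51). Of these neighbours only left deaf and right deaf were apart by more than their SDs.

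**Figure D3:**
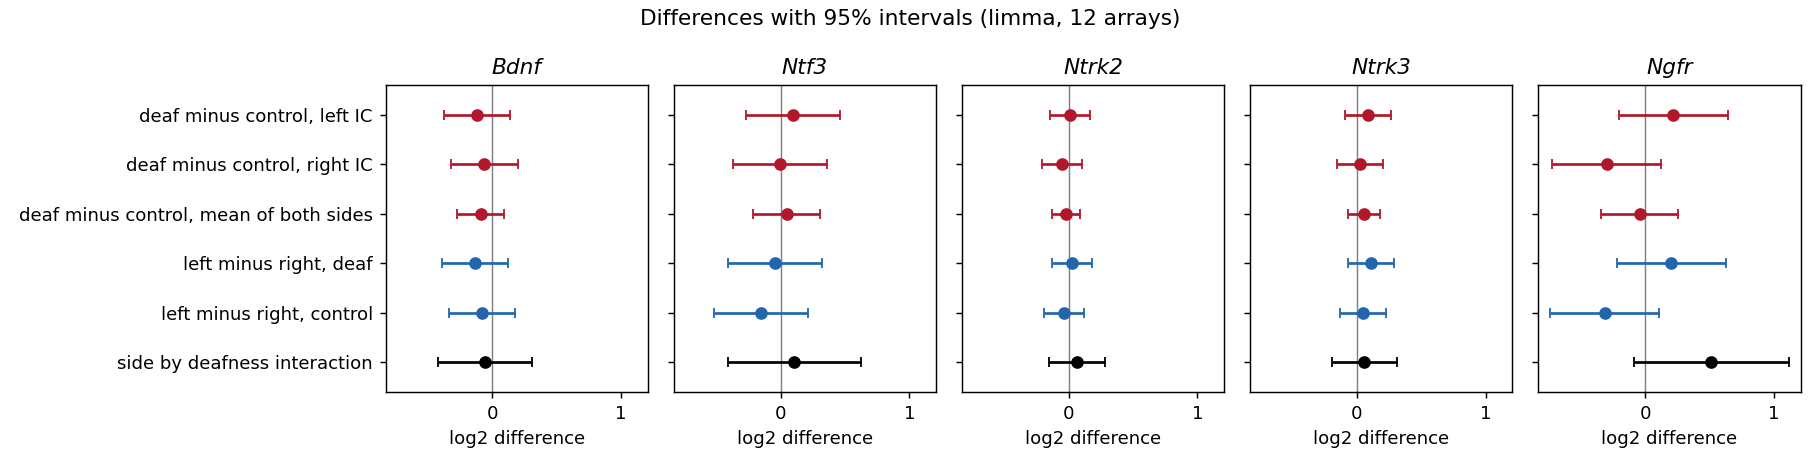
Log2 differences of the 5 genes with 95% intervals from limma, for deaf minus control (red), left minus right (blue) and the left deafness effect less the right one (black). Every interval crosses 0; the widest belong to Ngfr and the narrowest to Ntrk2.

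Between the sides, limma likewise called 0 of 5 genes, in deaf and in control rats, and 0 of 5 at an unadjusted p under 0.05, against 3.34% of all genes in deaf and 4.95% in control rats. In deaf rats Ngfr was 0.20 (SE 0.19; limma adjusted p = 1.00) higher on the left than on the right, with no overlap of arrays; 8.31% of genes did not overlap in that comparison. The same arrays were separated by the cerebellar score, at -0.11 to -0.033 in left deaf and -0.17 to -0.11 in right deaf arrays. They were also separated by the score of 15 neuronal markers, at -0.077 to -0.012 in left deaf and 0.026 to 0.029 in right deaf arrays. The part of either score in this Ngfr difference was not tested. In control rats 0 of 5 genes had sides that did not overlap, against 9.80% of all genes. The Ngfr difference of -0.31 (SE 0.19; limma adjusted p = 0.934) there was -0.023 without left control 2. Bdnf had lower means on the left in both arms, by -0.14 (SE 0.12) in deaf and -0.082 (SE 0.12) in control rats. Ntrk3 had higher means on the left in both arms, by 0.11 (SE 0.082) in deaf and 0.050 (SE 0.082) in control rats, and neither gene passed. With 1 array left out, the Bdnf difference ran from -0.24 (without right deaf 3) to -0.036 (without right deaf 1) in deaf rats and from -0.14 (without right control 3) to -0.019 (without right control 2) in control rats. The Ntrk3 difference ran from 0.066 (without left deaf 1) to 0.16 (without left deaf 2) in deaf rats and from 0.011 (without right control 1) to 0.090 (without right control 2) in control rats. These comparisons share arrays with those between deaf and control rats.

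Whether deafness acted differently on the 2 sides was tested as an interaction, the left difference less the right one. It called 0 of 5 genes, and 0 of 5 at an unadjusted p under 0.05, against 3.42% of all genes. The estimate was 0.52 (SE 0.27; unadjusted p = 0.0849; limma adjusted p = 1.00) for Ngfr. For the other 4 genes it lay between -0.055 for Bdnf and 0.10 for Ntf3. Without left control 2 the Ngfr interaction was 0.23, and without left control 1 it was 0.68.

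Array by array, correlations between the 5 genes were low to moderate. Over the 12 arrays the 10 pairs had Pearson correlations of -0.21 (Bdnf and Ngfr) to 0.50 (Ntrk2 and Ngfr), where the points share hybridisation and tissue sample. Between ligand and receptor, r was 0.093 for Bdnf and Ntrk2 and -0.021 for Ntf3 and Ntrk3, and Spearman rho was -0.14 and 0.049. For Ntrk2 and Ngfr rho was 0.71. Among the 9009 or 9010 other genes at or above the median level, the gene most like each of the 5 over the 12 arrays was Ppp1r7, a subunit gene of protein phosphatase 1, for Bdnf (r = 0.95, rho = 0.94), followed by Ralb (0.90) and Galnt17 (0.87). For Ntf3 it was Prok1 (r = 0.94), followed by Arpc2 and Foxq1 (0.90 each). For Ntrk2 it was a probe set annotated to the olfactory receptor gene Or5h25 (r = 0.92), followed by Slc12a5, the neuronal potassium-chloride cotransporter gene (0.92), and Nxnl1 (0.87). For Ntrk3 these genes were Fam227a and Ppfia1 (0.88 each) and the heat shock gene Hsph1 (0.87), and for Ngfr they were Sema4g (0.88), Klhl26 and Palm (0.87 each). Each is picked as the highest of all these correlations over few arrays and is given as a description.

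The other genes of the pathway were taken from 6 lists with 152 gene symbols, of which 129 were measured. Limma called 0 of 129 in any of the 6 comparisons. At an unadjusted p under 0.05 there were 3 of 129 on the left (1 higher, 2 lower in deaf; 3.69% of all genes) and 0 of 129 on the right (4.31%). The oligodendrocyte score also did not overlap on the left, at -0.086 to -0.028 in deaf and -0.025 to 0.037 in control arrays, and its part in the left differences was not tested. As given with Ngfr, the cerebellar and oligodendrocyte scores did not overlap on the right. Their part in the right differences of these genes was not tested either. The median difference over the 129 genes was -0.012 on the left, against -0.0051 over all genes, and 0.0034 on the right, against 0.0014. Means were lower in deaf arrays for 71 of 129 on the left and for 60 of 129 on the right. The genes named below were picked for a small p, which favours arrays that do not overlap. Deaf and control arrays did not overlap on the left for Sorl1, Plg, Pcsk7, Shc3, Bex3, Adam17 and Vgf. They did not overlap on the right for Mmp7, Crk, Pik3r1, Traf6, Mapk8, Bhlhe40 and Nr3c1.

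Among other ligands, receptors and co-receptors, 11 of 13 were measured, and 0 of 11 passed on either side. On the left 9 of 11 had lower means in deaf arrays, with a median of -0.087, against -0.0051 over all genes. On the right 5 of 11 did, with a median of 0.0067, against 0.0014. Sorl1, a sorting receptor gene of the family that binds neurotrophin precursors, was at 7.69 ± 0.054 in left deaf and 7.80 ± 0.048 in left control arrays (SD, n = 3), which did not overlap, a difference of -0.11 (SE 0.083). Slitrk5, whose product is a co-receptor of TrkB, was at -0.13 (SE 0.099) on the left. On the right the 2 smallest p-values belonged to Nradd, a relative of Ngfr with a death domain (0.14, SE 0.093), and Tnfrsf19, of the same receptor superfamily (-0.16, SE 0.11).

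Among proteases and inhibitors that process or hold back precursors, 0 of 13 passed. The median difference was -0.072 on the left (9 of 13 lower) and 0.017 on the right (6 of 13 lower), and the left median ran from -0.13 without left deaf 3 to -0.027 without left control 1. Among genes at or above the median level alone it was -0.16. The right median was -0.050 without right control 3. On the left the smallest p-values were those of Plg, the plasminogen gene (-0.29, SE 0.14), and Pcsk7, a proprotein convertase gene (-0.22, SE 0.11). On the right they were those of Mmp7, a matrix metalloprotease gene (-0.22, SE 0.12), and Pcsk2, a convertase gene (0.10, SE 0.087). The Mmp7 probe set lay below the lower quartile of all values on every array.

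Among adaptors and kinases downstream of Trk receptors, 0 of 38 passed on either side, and 0 of 38 had an unadjusted p under 0.05. The median difference was 0.016 on the left (17 of 38 lower) and -0.023 on the right (20 of 38 lower). Shc3, the neuronal Shc adaptor gene, was at 9.55, 9.64 and 9.49 on left deaf arrays, against 9.78, 9.84 and 9.73 on left control arrays. All left deaf arrays lay below all left controls, with a difference of -0.22 (SE 0.11; limma adjusted p = 1.00). Irs2, an insulin receptor substrate gene, was at 0.18 (SE 0.092) on the left. On the right Pik3r1, a regulatory subunit gene of phosphoinositide 3-kinase, was at -0.15 (SE 0.075), and Crk, an adaptor gene, at -0.14 (SE 0.074).

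Among adaptors and proteases of the p75 receptor, 0 of 26 passed. The median difference was -0.0028 on the left (14 of 26 lower) and 0.0034 on the right (11 of 26 lower). Bex3, whose product binds the death domain of p75, was at 9.33, 9.45 and 9.43 on left deaf arrays, against 9.21, 9.17 and 9.17 on left control arrays. Adam17, the gene of a protease that sheds the p75 ectodomain, was at 6.67, 6.60 and 6.57 on left deaf arrays, against 6.87, 6.85 and 6.77 on left control arrays. For both genes the left arrays did not overlap, by 0.22 (SE 0.083; unadjusted p = 0.0223; limma adjusted p = 1.00) and -0.22 (SE 0.097; unadjusted p = 0.0428; limma adjusted p = 1.00). On the right Bex3 differed by 0.0034 and Adam17 by 0.027. There Mapk8, a Jun kinase gene, was at 0.21 (SE 0.11), and Traf6, an adaptor gene of p75, at -0.15 (SE 0.078).

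Among regulators of Bdnf transcription, 0 of 20 passed. The median difference was 0.020 on the left (9 of 20 lower) and 0.00015 on the right (10 of 20 lower). Npas4, an activity-induced factor gene, was at 0.40 (SE 0.21) on the right and 0.12 (SE 0.21) on the left. On the right it had 6.77, 5.92 and 6.03 on deaf arrays, against 5.71, 5.99 and 5.82 on control arrays. These arrays overlapped, and right deaf 1 lay far above the rest. Rest, the gene of a repressor of neuronal genes, was at -0.19 (SE 0.10) on the right and -0.17 (SE 0.10) on the left. Nr3c1, the glucocorticoid receptor gene, was at -0.12 (SE 0.080) on the right and -0.17 (SE 0.080) on the left. For the mean of both sides Nr3c1 and Rest were the 2 of 20 with an unadjusted p under 0.05 (0.0268 and 0.0302; limma adjusted p = 1.00 each), against 4.53% of all genes. Bhlhe40, the gene of a helix-loop-helix repressor, was at -0.17 (SE 0.091) on the left and 0.079 (SE 0.091) on the right.

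Genes that neurotrophins or neuronal activity induce were the list with the largest shift, and it lay between the sides of deaf rats. In deaf rats 21 of 21 measured members had lower means in the left than in the right IC, with a median difference of -0.14, against 52.2% of all genes with lower means and a median of -0.0057. In control rats 15 of 21 were lower on the left (median -0.045), against 50.4% of all genes. The median of the 21 gene-centred values was -0.050, -0.093 and -0.061 on left deaf arrays, against 0.10, 0.030 and 0.036 on right deaf arrays, with no overlap. It was -0.031, -0.074 and -0.0040 on left control arrays, against -0.028, 0.018 and 0.071 on right control arrays, which overlapped. The neuronal marker score given above separated the same arrays, and its part in the shift was not tested. With 1 of the 6 deaf arrays left out, 16 (without left deaf 2) to 20 of the 21 were lower. In control rats the count was 10 without right control 3, against 52.2% of all genes, and 12 without left control 2 or right control 2. The 21 genes were read on the same arrays, so their count is not a count of independent observations. The list was also chosen with earlier results of these data known, and it is described here for having the largest shift. The shares of all genes are therefore no like measure for its counts. Limma called 0 of 21, and 4 of 21 had an unadjusted p under 0.05, all lower on the left (3.34% of all genes in both directions). In control rats 2 of 21 did, also lower on the left (4.95% of all genes). The interaction, which tests whether the side difference was different in deaf rats, called 0 of 21, had a median of -0.080 and 3 of 21 at an unadjusted p under 0.05 (3.42%). Between deaf and control arrays the median of the list was -0.037 on the left, with 13 of 21 lower in deaf, and 0.039 on the right, with 8 of 21 lower (0.081 on the right among genes at or above the median level).

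**Figure D4:**
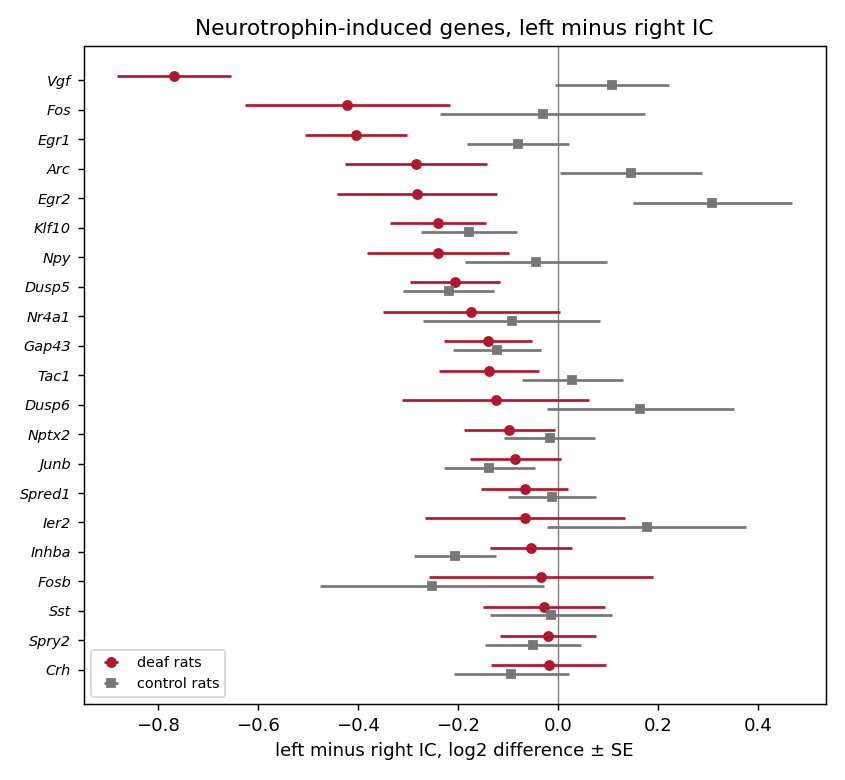
Left minus right log2 difference, with its SE, of 21 genes that neurotrophins or activity induce, in deaf rats (red circles) and control rats (grey squares), ordered by the difference in deaf rats. All red circles lie below 0, from -0.77 for Vgf to -0.020 for Crh, whereas the grey squares lie on both sides of 0.

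In deaf rats Egr1, an activity-induced factor gene, differed by -0.40 between left and right (SE 0.10; unadjusted p = 0.0020; limma adjusted p = 1.00). It had 7.75, 8.03 and 7.78 on left deaf arrays, against 8.35, 8.32 and 8.10 on right deaf arrays, with no overlap. In control rats Egr1 differed by -0.081 (SE 0.10) between left and right. Between deaf and control arrays it was at -0.12 (SE 0.10) on the left and 0.20 (SE 0.10) on the right, and both sides overlapped. Egr2, of the same family, was at -0.29 (SE 0.16) on the left and 0.30 (SE 0.16) on the right between deaf and control arrays. Vgf, the gene of a secreted peptide precursor that neurotrophins induce, was at 7.29 ± 0.21 in left deaf and 8.17 ± 0.17 in left control arrays (SD, n = 3), a difference of -0.88 (SE 0.11; limma adjusted p = 0.110). The Vgf means in right deaf and right control arrays were both 8.06, and on the left Bdnf differed by -0.12 and Ntrk2 by 0.011.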

How the data were processed

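Total RNA of 12 tissue samples was read on 1-colour Affymetrix arrays as biotin-labelled single-stranded cDNA, per the labels' protocols. The deposited values are log2 intensities, and in them values of equal rank lay within 0.0995 of each other across arrays. The software that made them is not stated. Precision is limited by how few arrays there are. Of 29489 probe sets, 18511 had 1 gene symbol, 575 several and 10403 none; the brightest probe set of each symbol was kept (18166 genes), with no filter on dim genes. R 4.3.3 with limma 3.58.1 gave 1 mean per group from all 12 arrays (8 residual degrees of freedom). The fit was tested on simulated data. The 5 genes and the lists were chosen with earlier results of these data known. From each list the 2 genes of smallest p on each side were named. The most alike genes were the 3 with the highest Pearson r over 12 arrays. The alternatives were quantile normalization, centring, a filter on level, other uses of probe sets, a variance trend, array weights, fewer groups, blocks and leaving out each array. Leaving out arrays for the medians and counts of the lists was chosen after seeing the data.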

Additional observations from a re-analysis of the deposited data

Results flagged for a closer look

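For 4 of the 28 genes named by the rules above, every left deaf array lay on one side of the left control mean and every right deaf array on the other side of the right control mean. Among the 5 neurotrophin and receptor genes only Ngfr did so, against 5.93% of all genes. The rest of the 28 were named for their small p in the same comparisons, so that share is no like measure for their count. The interaction was tested for each of the 4 genes, and none passed (limma adjusted p = 1.00 each). The left difference less the right one was 0.52 (SE 0.27) for Ngfr, 0.22 (SE 0.11) for Traf6, -0.25 (SE 0.13) for Bhlhe40 and -0.59 (SE 0.23) for Egr2. The Ngfr pattern rests on left control 2: without it the left difference was -0.073, of the same sign as on the right, and the value was 0.23.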

How the results depend on the processing

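No value of the 5 genes passed the adjusted threshold under any alternative, and 276 of 278 kept their direction; with array weights Ntf3 (0.014) and Ntrk3 (-0.0019) turned on the right. The limma fit on the 2 right groups alone gave Ngfr an unadjusted p of 0.0345 and the fit on the 2 deaf groups alone 0.0432 (limma adjusted p = 1.00 each). With an array left out, 333 of 360 kept it. Ranges of those that did not were, on the left, -0.023 to 0.18 for Ntf3, -0.0082 to 0.023 for Ntrk2 and -0.073 to 0.38 for Ngfr. On the right they were -0.16 to 0.042 for Bdnf, -0.13 to 0.14 for Ntf3 and -0.012 to 0.067 for Ntrk3, and for the mean of both sides -0.014 to 0.12 for Ntf3 and -0.19 to 0.043 for Ngfr. Ntf3 ran from -0.19 to 0.078 between the sides of deaf rats, and the interaction from -0.16 to 0.046 for Bdnf and from -0.040 to 0.23 for Ntf3. The cause was not tested. Over all genes limma called 0 on the left, but 1 (Vgf) among genes at or above the median level, where fewer genes are tested, with a variance trend, and without left deaf 3 (0 to 1 with an array left out). Between the sides of deaf rats the first 2 of these settings gave 1 and 2. For the mean of both sides 1 gene was called without right control 3 (0 to 1). Bdnf and Ntf3 lie below the median level and have no value with that filter. The replicate number as a block gave 1 call between the sides of controls and 1 for the interaction, none among the 5 genes. Same-numbered left and right arrays of an arm had correlations of -0.056 to 0.15, and 6 of 12 arrays correlated best with their own number. With only 3 arrays to choose from on the other side, this cannot tell whether the numbers mark pairs. The numbers were not taken as pairs because no link is stated. A random block by arm and number (correlation 0.036) gave 0 calls.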
